A study of Rattus norvegicus with 12 samples.

Results

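The aspirin experiment of a rat colon cancer time course set 5 arrays of CC531 cells in 3 mM aspirin, taken at 2, 6, 12, 16 and 24 h, against 2 arrays of untreated CC531 cells, taken at 2 and 24 h. CC531 is a line grown from a chemically induced colon carcinoma of the rat. These 7 arrays were chosen by their labelled treatment from the 12 arrays of the series, and the other 5 carry cells in 4.5 mM butyrate at the same hours, a short-chain fatty acid that inhibits histone deacetylases. Each array holds 1 sample of total RNA from this 1 line, no treatment and hour was repeated, and no array of untreated cells was made at 6, 12 or 16 h. The labels name no solvent control and no separate cultures, so a p-value here reflects nothing beyond the array-to-array spread, in which drift over the hours and possibly technical noise are mixed.

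Aspirin acetylates the cyclooxygenases Ptgs1 and Ptgs2, the enzymes that turn arachidonic acid into prostaglandins, and in colon tumours the inducible form Ptgs2 is the best known of its targets. Aspirin is quickly cleaved to salicylate, which at high concentrations is also known to inhibit the kinase that releases NF-kappaB, to uncouple mitochondria and to activate AMP-activated kinase. The genes below were therefore read in groups that follow these actions, beside the groups that make up growth, stress and the epithelial character of the cells.

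The array holds 8740 probe sets other than controls, and the 6118 of them bright enough to be tested cover 3647 genes. Values are intensities on a linear scale, raised to a floor of 90.91 where they were lower, and every change is a difference of log2 intensities, so that 1 stands for 2-fold. On the 7 arrays 16.2 to 21.1% of the tested values were at the floor, and the median log2 intensity ran from 8.49 to 8.86. Untreated 2 h was the brightest by that median and aspirin 2 h the dimmest. The cells carried their epithelial markers: of 18 tested, 14 were above the floor on all 7 arrays, with summed intensities of 80324 to 93668 untreated and 78565 to 88240 with aspirin. Of 11 tested blood and immune markers 3 were above the floor on all 7 arrays, and their summed intensity was 3500 to 4708 untreated and 2918 to 6112 with aspirin. Fibroblast and smooth muscle markers summed to 9121 to 9501 untreated and 6585 to 9347 with aspirin, with 3 of 11 at the floor throughout. The part of other cells in the results was not tested, and in bulk RNA fewer cells of a type and less RNA per cell cannot be told apart.

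The untreated arrays themselves differed at least 2-fold at 16.5% of the tested probe sets. Untreated 2 h differed 2-fold from the aspirin arrays at 16.9 to 22.9%, and untreated 24 h at 7.76 to 13.3%. The 10 pairs of aspirin arrays differed at 7.55 to 16.8%. Untreated 24 h therefore lay about as close to the aspirin arrays as these lay to each other, and untreated 2 h lay farther off. For this reason each gene below is given on every array, and each comparison is given against both untreated arrays and against each of them alone.

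The question of the comparison was which genes aspirin changed in these cells. Few single genes stood clear of the spread. Egr1, an immediate-early transcription factor, Ndufv3, a subunit of respiratory complex I, Ppib, a cyclophilin of the endoplasmic reticulum, and Dgcr6, a gene of the DiGeorge syndrome region, were called higher. Mog, a myelin glycoprotein, and Ctla4, an immune checkpoint receptor, fell to the floor or near it, and Cacna1b, a neuronal calcium channel subunit, was called lower at the floor. Dgcr6 and Cacna1b passed the filter on dim probe sets only through the arrays where they were higher, so their calls are given as a description and support nothing. Together with 2 probe sets that name no single gene these are all the calls: 5 probe sets higher (0.0817%) and 4 lower (0.0654%) of 6118 at an adjusted p under 0.05 (limma, Benjamini-Hochberg over all tested probe sets). At an unadjusted p under 0.05 there were 656 probe sets, 238 higher and 418 lower, where 305.9 would be reached by chance. Counted by the brightest probe set of a gene, 5 of 3647 genes were called (0.137%).

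**Figure D1:**
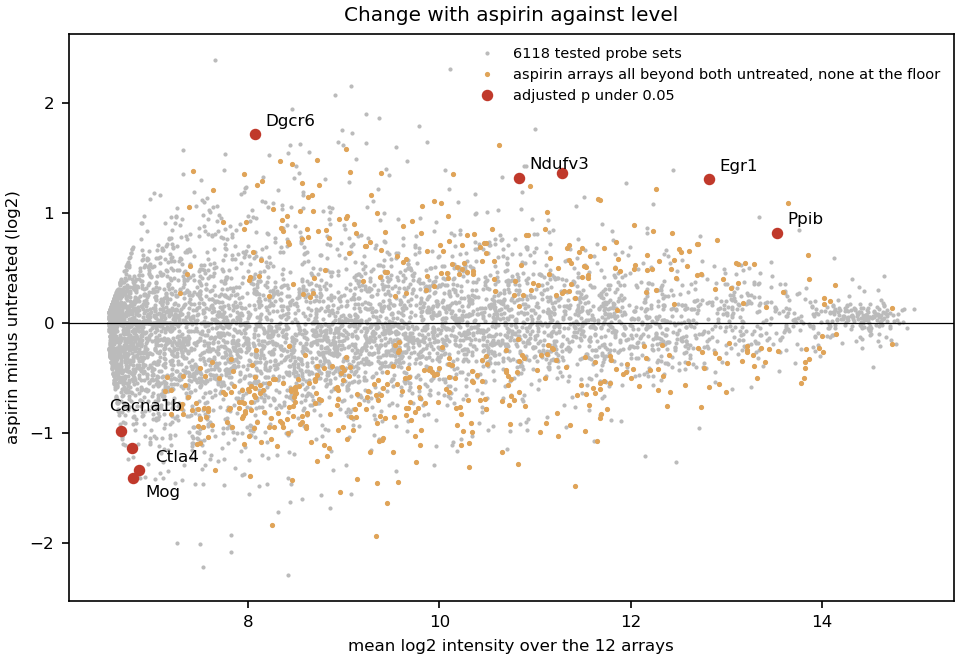
Change with aspirin (mean of 5 aspirin arrays minus mean of 2 untreated arrays, log2) against the mean log2 intensity over the 12 arrays, with 1 point for each of 6118 tested probe sets. Red marks the 9 probe sets with an adjusted p under 0.05 (7 name 1 gene) and orange those with all aspirin arrays above or below both untreated arrays and no array at the floor; the called falls lie at the dim end, at changes of −0.99 to −1.41.

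Egr1 read 2654 and 2582 in untreated cells at 2 and 24 h, and 8291, 4698, 4918, 7551 and 7851 in aspirin at 2, 6, 12, 16 and 24 h. Every aspirin array stood above both untreated arrays, highest at 2 h and from 16 h on, and lower at 6 and 12 h between. The mean change was 1.31 ± 0.22 (SE; 2 untreated, 5 aspirin arrays; limma adjusted p = 0.036). Its other 3 probe sets read 1.11 (0.36), 0.28 (0.844) and 0.14 (0.989), so the call stands on 1 of 4 probe sets. Egr1 was called in 5 of 23 alternatives, with adjusted p-values of 0.027 to 0.755 and changes of 1.22 to 1.62.

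Egr1 is a textbook target of serum response factor, which binds the CArG box, and its promoter is shown because it is the called gene whose control sequences are best known. The 250 bases before its start (RefSeq, rat build GRCr8, chr18:26736828-26737077, plus strand) hold 2 CArG boxes, in capitals, that begin 105 and 83 bases before the start.

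Egr1 promoter: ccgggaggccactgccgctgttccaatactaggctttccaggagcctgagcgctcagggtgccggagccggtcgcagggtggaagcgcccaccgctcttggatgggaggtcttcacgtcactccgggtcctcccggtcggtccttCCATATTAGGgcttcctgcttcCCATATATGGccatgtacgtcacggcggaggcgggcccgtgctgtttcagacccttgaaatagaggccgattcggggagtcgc

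The CArG box, searched on both strands, is in 1.5% of 27457 RefSeq promoters of this length. Among the 25 of 34 tested immediate-early genes with a promoter in the table, 5 held one: Egr1, Egr2 (change 0.23), Klf6 (−0.03), Dusp5 (−0.37) and Zfp36 (−0.40). Of these 5 genes Egr1 was the only one called.

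Ndufv3 read 556.3 and 857.9 untreated and 2038, 1543, 1587, 1573 and 1931 with aspirin. All 5 aspirin arrays lay well above both untreated arrays and close together, and the gap was wider at 2 h than at 24 h because untreated 24 h was the higher of the pair. The change was 1.32 ± 0.22 (adjusted p = 0.036), while the gene's other probe set read 0.38 (0.839). Ndufv3 stayed called in 6 of 23 alternatives (adjusted p from 0.00231 to 0.755).

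Ppib, a proline isomerase that helps secreted proteins fold, read 7258 and 9151 untreated and 13172, 14368, 14103, 14676 and 15664 with aspirin. The aspirin arrays formed a narrow band above both untreated arrays at a high intensity. The change was 0.82 ± 0.14 (adjusted p = 0.036), the smallest of the called rises, and the other probe set read 0.11 (0.836). It was called in 5 of 23 alternatives (0.00477 to 0.755).

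Dgcr6 read 79.0 and 89.6 untreated, both under the floor, and 383.9, 363.2, 286.4, 268.0 and 219.2 with aspirin. All 5 aspirin arrays were at least 2-fold above the floor, with the highest value at 2 h and the lowest at 24 h. The difference was at least 1.71 ± 0.29 (adjusted p = 0.036) on the only tested probe set of the gene, and it was called in 7 of 23 alternatives (0.0151 to 0.755). The called probe set without a single gene name read 1042.0 and 1303 untreated and 2024 to 3606 with aspirin (1.36, adjusted p = 0.0481).

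Among the falls Mog had the lowest adjusted p. It read 263.3 and 235.5 untreated and −50.6, 104.2, −67.6, 52.8 and −141.3 with aspirin. A single aspirin array, that of 6 h, stood just above the floor, and the other 4 were at it. With values under the floor raised to it, the change was −1.41 ± 0.17 (limma adjusted p = 0.00663). Mog was called in 17 of 22 alternatives (adjusted p up to 0.755), which include each fit that left out 1 array. Leaving out 1 array says little here, since 4 aspirin and 4 butyrate arrays share the floor value. With a floor of 20 the change was −2.88 and was not called (limma adjusted p = 0.348).

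Ctla4 read 253.1 and 281.4 untreated and 128.8, 13.3, 48.5, 74.2 and 135.9 with aspirin on one probe set. The arrays of 6, 12 and 16 h were at the floor and those of 2 and 24 h just above it. The change of the floored values there was −1.34 ± 0.20 (adjusted p = 0.0293; called in 14 of 22 alternatives, 0.000202 to 0.755), and the other probe set read −0.85 (0.404). Cacna1b read 154.7 and 209.8 untreated and was at the floor on all 5 aspirin arrays, a difference of at least −0.99 ± 0.15 (0.0293; called in 13 of 22 alternatives, 5.03e-05 to 0.755). All 5 butyrate arrays were at the floor too, so that the treated arrays have no measured spread, and their mean of 6.51 was under the 6.54 that the filter asks of the 12 arrays. For Mog and Ctla4 the treated arrays had means of 6.56 and 6.61, with 8 of the 10 at the floor in each. The other probe set of Cacna1b read −0.76 (0.411). None of these 3 genes is a marker of colon epithelium, and their untreated values were at most 281.4, beside a floor of 90.91.

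The 9 calls depended on the fit. None of the 5 higher and 4 lower probe sets was called with quantile normalization, with median centring, with time as a factor, or on the 2 and 24 h arrays alone with the hour as a block. That last fit holds 1 array per treatment and hour and could hardly call any probe set, so the loss there says little. The 0.755 that ends the range of each called gene is from that fit. With a filter at the 50th percentile the 5 higher were not called, and the 4 lower were too dim to be tested. With the aspirin and untreated arrays fitted alone 0 were higher and 6 lower, and with a floor of 20 there were 6 higher and 0 lower. The count was 5 without aspirin 2 h or 24 h, 1 without aspirin 12 h or 16 h, and 4 without butyrate 6, 12, 16 or 24 h, since the butyrate arrays share in the estimate of the spread. Of the fits that left out 1 array, Ndufv3 and Ppib were called without untreated 24 h and without butyrate 2 h and were lost in the other 10. Egr1 was also called without aspirin 6 h and Dgcr6 without aspirin 24 h, and both were lost in the rest. Ctla4 and Cacna1b were lost without aspirin 12 h and without aspirin 16 h. In simulated data with the same groups, 200 probe sets were changed and the noise was drawn independently for each probe set and array. The test found 28.8% of 2-fold and 72.4% of 4-fold changes there, with 5.8% false calls. Drift shared by an array or an hour was not simulated, so these rates need not hold for the real data. Many changes of these sizes were missed even in the simulation, and a gene that was not called is not shown to be steady.

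Beyond the calls, all 5 aspirin arrays stood above both untreated arrays at 233 probe sets (3.81%) and below both at 476 (7.78%). Counted by genes these were 162 higher (4.44%) and 299 lower (8.20%). Where none of the 7 arrays was at the floor, on 3984 probe sets, the counts were 200 and 343. Separation between groups this small also arises by chance, and none of these counts was tested against it. The genes described next are those with the widest gap between the nearest aspirin and the nearest untreated array, none of them called at an adjusted p under 0.05.

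**Figure D2:**
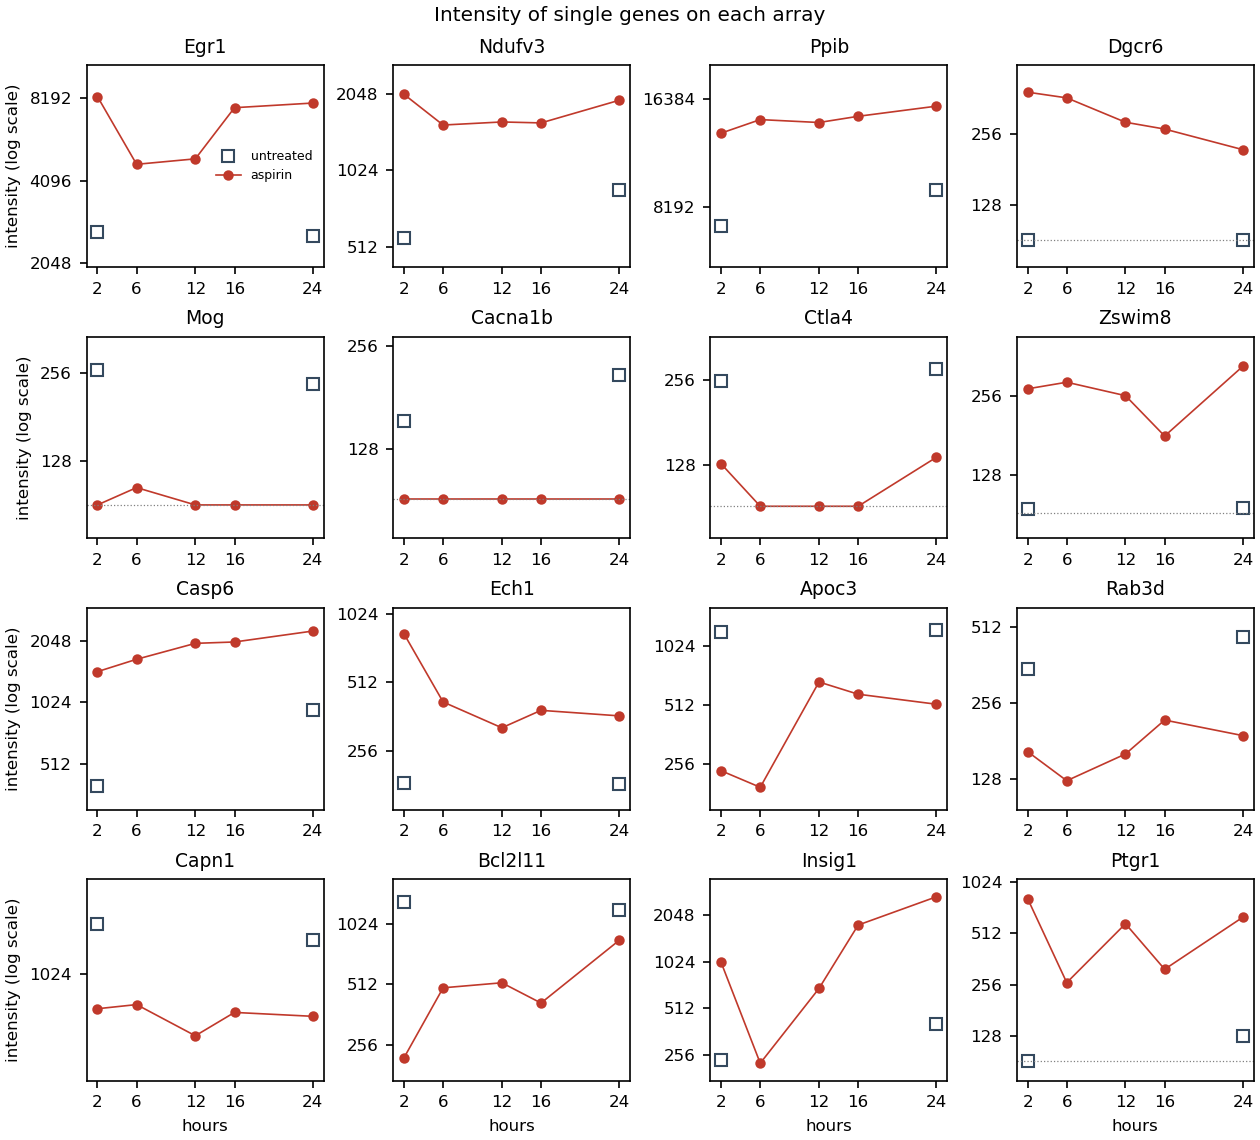
Intensity (log scale) of 16 genes on the 2 untreated arrays (open squares) and the 5 aspirin arrays (filled circles joined by a line) against hours; the dotted line is the floor, to which lower values are raised. From Egr1 to Ctla4 the panels show the 7 called genes, from Zswim8 to Bcl2l11 genes whose groups do not overlap, and Insig1 and Ptgr1 genes far above the untreated array of the same hour at 2 and 24 h.

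On the higher side, Zswim8, a substrate adaptor of a ubiquitin ligase, read 94.7 and 95.0 untreated and 273.6, 290.1, 257.5, 180.1 and 334.4 with aspirin (1.46 ± 0.32, limma adjusted p = 0.202). The untreated values lay just above the floor and the aspirin values well clear of it at every hour. Casp6, an effector caspase, read 396.8 and 935.3 untreated and 1450.5, 1668, 1998, 2028 and 2295 with aspirin. Its level was higher at each later aspirin hour. The change was 1.61 ± 0.32 (adjusted p = 0.101, and 0.00236 to 0.755 over the alternatives), and the gene's other probe set read 1.64 (0.256).

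Ech1, an enzyme that handles unsaturated fatty acids in mitochondria and peroxisomes, read 184.2 and 183.5 untreated and 838.4, 419.8, 323.2, 385.7 and 364.7 with aspirin (1.25 ± 0.40, 0.363). Its 2 h array stood far above the other 4. Slc16a6, a transporter of the monocarboxylate family, had the same shape, at 187.5 and 207.0 untreated and 1127, 464.8, 300.3, 494.0 and 414.7 with aspirin (1.35 ± 0.57, 0.414).

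A pair of genes of the intraflagellar transport complex, which moves cargo along cilia, was on this side too. Ift25 read 392.2 and 418.2 untreated and 698.7 to 1051 with aspirin (1.06 ± 0.25, 0.256), and Ift46 read 536.3 and 565.4 untreated and 913.2 to 1544 with aspirin (1.09 ± 0.27, 0.256). Both have another probe set on the array, which read at least 0.98 (0.381) for Ift25 and 0.62 (0.534) for Ift46. For each gene both probe sets thus had positive changes that did not pass.

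Zfp36l1, which binds AU-rich messages and speeds their decay, read 5307 and 5266 untreated and 7585, 7555, 8527, 9207 and 10814 with aspirin (0.71 ± 0.20, 0.264). The values were highest at 24 h. Ube2b, a ubiquitin-conjugating enzyme of DNA repair, read 1139 and 1249 untreated and 1864 to 3463 with aspirin (1.01 ± 0.29, 0.264). Hspa13, a microsomal chaperone of the heat shock protein family, read 125.0 and 130.1 untreated and 188.6 to 340.6 with aspirin (0.97 ± 0.31, 0.363). The remaining pair of this kind was Smim13 (1.04 ± 0.45, 0.428) and Fra10ac1 (0.74 ± 0.40, 0.524).

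On the lower side, Apoc3, an apolipoprotein of triglyceride-rich particles that liver and gut make, read 1207 and 1242 untreated and 236.3, 194.3, 673.2, 582.7 and 517.7 with aspirin. The aspirin arrays were lowest at 2 and 6 h and came back in part from 12 h on without reaching the untreated level. The change was −1.64 ± 0.45 (adjusted p = 0.256). Bcl2l11, the pro-apoptotic protein Bim, read 1310.5 and 1194 untreated and 221.0, 492.1, 521.2, 413.5 and 847.9 with aspirin (−1.45 ± 0.40, 0.256), lowest at 2 h and nearest to untreated at 24 h. The other 3 probe sets of Bcl2l11 read 0.11, −0.03 and 0.08, each with at least 1 untreated array at the floor, so this difference rests on 1 probe set.

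Rab3d, a small GTPase of secretory granules, read 347.7 and 468.8 untreated and 164.6, 126.3, 161.1, 219.4 and 190.4 with aspirin (−1.25 ± 0.33, 0.256). Capn1, the calcium-activated protease calpain-1, read 1372 and 1253 untreated and 838.4, 858.9, 716.3, 820.6 and 802.2 with aspirin (−0.70 ± 0.20, 0.264). The goblet cell mucin Muc2 read 834.9 and 865.6 untreated and 510.6, 526.6, 507.1, 547.1 and 458.9 with aspirin (−0.74 ± 0.30, 0.404). For Capn1 and Muc2 the aspirin arrays lay in a narrow band below the untreated pair, at every hour from 2 h on.

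Sfpq, a splicing factor, was also separated on the lower side and read 4984 and 5045 untreated and 2942, 1859, 3071, 2268 and 961.3 with aspirin (−1.29 ± 0.58, 0.443), and its other probe set read −0.98 (0.615). Trmt6, a transfer RNA methyltransferase subunit, read 1455 and 1373 untreated and 690.0 to 886.1 with aspirin (−0.85 ± 0.49, 0.552). Vars1, the valyl transfer RNA synthetase, read 1483 and 725.3 untreated and 390.1 to 525.0 with aspirin (−1.13 ± 0.59, 0.514). Nolc1, a nucleolar phosphoprotein, read 821.2 and 544.0 untreated and 202.6 to 377.6 with aspirin (−1.06 ± 0.55, 0.515). For Vars1 and Nolc1 untreated 2 h was much higher than untreated 24 h, which was itself nearer to the aspirin arrays.

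Csnk2a1, the catalytic subunit of casein kinase II, read 1115 and 770.0 untreated and 173.5 to 517.4 with aspirin (−1.54 ± 0.48, 0.363), but its other 2 probe sets read 0.11 (0.939) and −0.25 (0.905). The metalloprotease-like Adam7 (−1.10 ± 0.30, 0.256) and the olfactory receptor Or2b2 (−0.86 ± 0.26, 0.321), genes of other tissues, read 303.1 to 356.1 and 270.1 to 335.5 untreated and no more than 219.2 and 181.1 with aspirin. All 3 stood apart from untreated cells on every array on the probe set described.

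Some genes passed from the floor to a measured level or the reverse. Rxrb, a retinoid X receptor that pairs with many lipid-sensing receptors, read 36.1 and 49.9 untreated and 163.5, 307.2, 403.8, 198.1 and 359.8 with aspirin (at least 1.57 ± 0.40, 0.256). Slc25a14, a mitochondrial carrier related to the uncoupling proteins, was at the floor untreated and read 182.6, 177.8, 189.2, 353.1 and 311.3 with aspirin (at least 1.35 ± 0.41, 0.329). Its other probe set, above the floor on every array, read 1.25 (0.381). C1qtnf6, a secreted C1q-like protein (at least 1.19), Nup58, a nuclear pore protein (at least 1.06), and the linker histone H1f4 (at least 1.02) showed the same pattern at aspirin values of 124.9 to 280.9. The other 3 probe sets of Nup58 read −0.50, −0.01 and −0.23.

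In the other direction Mfsd10, a membrane transporter, read 227.6 and 197.0 untreated and was at the floor on all 5 aspirin arrays (at least −1.22 ± 0.25, 0.125). Slc26a2, the sulfate transporter, read 297.9 and 164.7 untreated and 45.0 to 74.2 with aspirin (at least −1.28 ± 0.29, 0.212). Cel, the bile salt-stimulated lipase, went from 268.9 and 143.2 to the floor (at least −1.11 ± 0.28, 0.256). Kynu, an enzyme of tryptophan breakdown (at least −0.84), and Ppp2r2b, a phosphatase subunit (at least −0.71), did likewise from untreated values of 121.5 to 191.7, though another probe set of Ppp2r2b read −0.03. For Slc26a2, Cel, Kynu and Ppp2r2b untreated 2 h was the higher of the pair.

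The hour can be held fixed at 2 and 24 h, with 1 array on each side and no test. At both hours 71 probe sets were at least 2-fold higher with aspirin (1.16%) and 54 at least 2-fold lower (0.883%) than untreated cells of the same hour. Insig1, which holds back the sterol sensor of the endoplasmic reticulum, was among the higher ones, with differences of 2.09 at 2 h and 2.72 at 24 h. It read 238.8 and 407.9 untreated and 1015, 226.2, 687.6, 1766 and 2690.4 with aspirin. Its 6 h aspirin array was below both untreated arrays, so the group mean was no clear rise (1.60 ± 0.69, 0.428).

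Prnp, the prion protein, was 2.18 and 1.84 higher at the same hours and read 132.3 and 283.6 untreated and 599.7, 225.9, 465.2, 288.6 and 1015 with aspirin. Serpinb9, a granzyme B inhibitor (2.73 and 1.51), Bckdha, of branched-chain amino acid breakdown (2.36 and 1.62), Tmem205 (2.07 and 1.46) and Zswim8 (1.53 and 1.82) were further examples. In Prnp, Serpinb9 and Bckdha untreated 24 h was more than 2-fold above untreated 2 h and the 6 h aspirin array was close to it. The other probe set of Bckdha read −0.19 over all arrays.

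Among the lower ones at both hours were Apoc3 (−2.35 at 2 h and −1.26 at 24 h), Scaf8, a factor that binds RNA polymerase II (−1.73 and −1.64), and Slc12a2, the chloride cotransporter of secreting epithelia (−1.59 and −1.38). Slc12a2 read 524.8 and 256.3 untreated and 173.8, 191.3, 121.7, 160.1 and 98.2 with aspirin, all below both untreated arrays (−1.34 ± 0.36, 0.256). Its other probe sets read −0.84 (0.389), with all 5 aspirin arrays and 1 untreated array at the floor, and −0.24 (0.715). Clps, the pancreatic colipase (−1.34 and −1.47), Ddah1, which breaks down methylated arginines (−1.81 and −1.27), Ppat, of purine synthesis (−1.50 and −1.27), the histone chaperone Nap1l4 (−1.69 and −1.24) and the morphogen Shh (−1.71 and −1.21) were the others named. Over all arrays the other probe set of Ddah1 read −0.32 (0.771) and that of Nap1l4 −0.40 (0.61). In Scaf8 and Nap1l4 the aspirin arrays overlapped with untreated cells. For Ppat and Scaf8 untreated 2 h was more than 2-fold above untreated 24 h.

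The genes of aspirin's own pathway gave no call. Ptgs1, the constitutive cyclooxygenase, read 248.2 and 286.2 untreated and 179.1, 166.5, 204.6, 276.1 and 335.9 with aspirin (−0.25 ± 0.31, 0.843). Ptgs2, the inducible one, read 220.5 and 232.2 untreated and 203.3, 236.0, 41.2, 237.9 and 252.0 with aspirin (−0.24 ± 0.41, 0.896). Both overlapped with untreated cells, and the lower mean of Ptgs2 came from the 12 h array, which was at the floor. Without that array the change of Ptgs2 was 0.03. Its other probe set read −0.57 (0.49).

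Of 18 tested genes of prostaglandin synthesis and breakdown 0 were called, 5 had a positive change, and the median was −0.15 against −0.04 over all 3647 genes. All 5 aspirin arrays of 2 of them stood above both untreated arrays, as for 4.44% of all genes. Ptgr1, which reduces and so inactivates prostaglandins and leukotriene B4, read −4.7 and 128.2 untreated and 820.5, 263.5, 584.0, 315.6 and 638.4 with aspirin. It was more than 2-fold above both untreated arrays at every hour, with the values of 6 and 16 h lower than the rest, and the change was 2.15 ± 0.51 with untreated 2 h raised to the floor (0.249). Pla2g6, a calcium-independent phospholipase, read 92.8 and 47.4 untreated and 206.1, 124.5, 259.2, 481.7 and 246.8 with aspirin (1.38 ± 0.47, 0.381, with untreated 24 h at the floor). Hpgds, the glutathione-dependent prostaglandin D synthase, was at the other end of the list with −0.73 ± 0.39 (0.519), and its values overlapped.

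Cholesterol synthesis and uptake was the list whose median lay farthest above that of all genes. Of its 17 tested members 0 were called and 14 had a positive change, and the median was 0.63, beside −0.04 and 42.5% positive over all genes. Only Idi1, which makes the isoprenoid building block dimethylallyl diphosphate, had all 5 aspirin arrays above both untreated arrays. It read 1394 and 3438 untreated and 3856, 4333, 5504, 5392 and 5052 with aspirin (1.13 ± 0.39, 0.381). Its second probe set, at the floor on 4 of the 7 arrays, read 0.25 (0.632).

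Fdft1, squalene synthase, read 142.2 and 1000 untreated and 1195, 999.8, 1886, 2805 and 3566 with aspirin (2.31 ± 0.64, 0.264; 0.0103 to 1 over the alternatives). Its other 3 probe sets read 1.03 (0.404), 0.77 (0.543) and 1.16 (0.405), smaller than the first and all positive. Dhcr7, the last enzyme of the pathway, read 456.4 and 984.4 untreated and 1024, 919.8, 1928, 2120.5 and 1990.0 with aspirin (1.16 ± 0.37, 0.363). In both genes the aspirin arrays of 2 and 6 h were near untreated 24 h, and those of 12, 16 and 24 h were above it. Soat1, which esterifies cholesterol for storage, stood opposite, at 2494 and 350.4 untreated and 108.9, 117.4, 245.1, 211.8 and 382.2 with aspirin (−2.29 ± 0.63, 0.256). That difference rests on untreated 2 h, since untreated 24 h lay within the aspirin values.

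The same holds in part for the whole list. Its median was 1.17 against untreated 2 h alone and 0.26 against untreated 24 h alone, and untreated 24 h itself stood 0.77 above untreated 2 h. Against untreated cells of the same hour the median was 0.92 at 2 h and 0.53 at 24 h, on 1 array each. Against the mean of both untreated arrays it was 0.45, 0.13, 0.63, 0.80 and 0.97 at 2, 6, 12, 16 and 24 h. It was thus smallest at 6 h and largest at the latest hours. The median was 0.62 with quantile normalization, 0.74 with median centring and 0.69 where a gene was represented by the average of its tested probe sets.

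**Figure D3:**
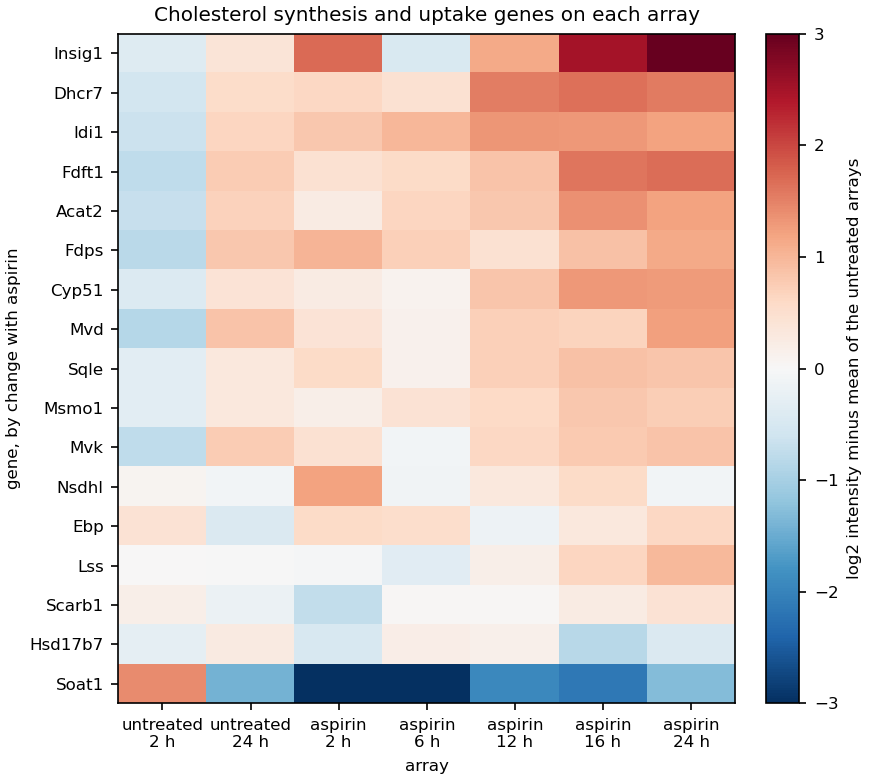
Log2 intensity of the 17 tested genes of cholesterol synthesis and uptake on the 2 untreated and 5 aspirin arrays, each minus the gene's mean over the untreated arrays (blue lower, red higher; colours stop at −3 and 3). Most rows are darkest red at 16 and 24 h of aspirin, untreated 24 h is redder than untreated 2 h in most rows, and Soat1 at the bottom is blue on every aspirin array.

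Genes of this pathway are known to share sterol regulatory elements and CCAAT boxes, the site of nuclear factor Y. The promoters of Idi1 and Insig1 are shown as the member whose groups did not overlap and the one with the largest difference from untreated cells of the same hour at 24 h. The 250 bases before the start of Idi1 (RefSeq, GRCr8, chr17:66547525-66547774, minus strand) hold 2 CCAAT boxes, in capitals on either strand (CCAAT or ATTGG), that begin 66 and 35 bases before the start. Those of Insig1 (chr4:8057770-8058019, minus strand) hold 1, beginning 193 bases before it.

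Idi1 promoter: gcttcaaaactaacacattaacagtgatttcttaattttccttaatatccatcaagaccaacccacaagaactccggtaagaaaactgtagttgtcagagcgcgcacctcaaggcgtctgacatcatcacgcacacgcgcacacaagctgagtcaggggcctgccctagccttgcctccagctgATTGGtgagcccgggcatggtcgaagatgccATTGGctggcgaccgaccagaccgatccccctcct

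Insig1 promoter: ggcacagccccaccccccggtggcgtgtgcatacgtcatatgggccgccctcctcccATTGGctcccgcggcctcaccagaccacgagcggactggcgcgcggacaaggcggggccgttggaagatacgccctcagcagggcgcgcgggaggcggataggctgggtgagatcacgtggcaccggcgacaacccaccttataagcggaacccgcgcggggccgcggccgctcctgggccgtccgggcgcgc

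CCAAT, searched on both strands, is in 34.2% of the 27457 promoters and in 11 of the 14 tested genes of the list with a promoter in the table, or 78.6%. The sterol regulatory element was searched as TCACNCCAC on both strands, as a motif apart from CCAAT, and was found in 1% of all promoters and in 0 of the 14. These letters are a description of the windows and show no binding.

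Mitochondrial genes were spread in both directions. Of 38 tested genes of oxidative phosphorylation 1 was called, Ndufv3, and the list had 24 positive changes and a median of 0.12. All aspirin arrays stood above both untreated arrays for 4 genes and below for 2 (4.44% and 8.20% of all genes). Among the 4 were further complex I subunits: Ndufa5 read 5334 and 6507 untreated and 7999 to 8923 with aspirin (0.51 ± 0.14, 0.256), and Ndufv2 read 3687 and 2550.2 untreated and 3759.5 to 5977 with aspirin (0.58 ± 0.21, 0.402). Cox4i2, a subunit of cytochrome oxidase, lay below, at 1278 and 1250.1 untreated and 562.9 to 949.9 with aspirin (−0.83 ± 0.23, 0.264). The median was 0.19 against untreated 2 h and −0.04 against untreated 24 h.

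Fatty acid and ketone body oxidation had 0 called of 31, 19 positive and a median of 0.21, which was 0.48 against untreated 2 h alone and −0.03 against untreated 24 h alone. Acadm, the medium-chain acyl-CoA dehydrogenase, read 79.2 and 333.9 untreated and 552.3, 432.0, 567.9, 531.6 and 879.8 with aspirin (1.72 ± 0.44, 0.256, with untreated 2 h raised to the floor). Slc27a1, a fatty acid transporter, was at the floor untreated and read 297.3, 20.7, 184.6, 482.8 and 689.1 with aspirin (1.61 ± 0.62, 0.404, with its 6 h array at the floor as well). Echs1, the short-chain enoyl-CoA hydratase, went the other way, at 1295 and 2043 untreated and 715.0 to 1199 with aspirin (−0.70 ± 0.27, 0.404). With Ech1 the list thus had 2 genes wholly above untreated cells and 4 wholly below, beside the same 4.44% and 8.20%. AMP kinase and energy sensing genes had 0 called of 21, 8 positive and a median of −0.12. That median was −0.02 against untreated 2 h alone and −0.23 against untreated 24 h alone. Of these genes 1 lay wholly above and 2 wholly below untreated cells (4.44% and 8.20% of all genes).

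Immediate-early genes, which answer growth and stress signals within minutes, had 1 called of 34 (0.137% of all genes), and 5 members stood wholly above untreated cells (4.44% of all genes). Besides Egr1 and Zfp36l1 they included Junb, an AP-1 subunit, at 1468 and 1877 untreated and 2604, 2651, 3432, 4084 and 6238 with aspirin (1.12 ± 0.44, 0.404). Junb was higher at each later hour, and its other probe set read 0.69 (0.693). The list as a whole was not shifted, with 14 positive changes and a median of −0.10 that turned to 0.04 with quantile normalization and 0.02 with median centring. Ier3, a stress-induced survival gene, read 4423 and 5887 untreated and 5357, 9008, 8592, 10693 and 12076 with aspirin (0.79 ± 0.32, 0.404), with its 2 h array between the untreated ones.

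NF-kappaB parts and targets had 0 called of 18, 9 positive and a median of 0.02. Nfkbia, the inhibitor that NF-kappaB induces and that holds it in the cytoplasm, read 842.1 and 1388 untreated and 1582, 1598, 1779.9, 1517 and 1921 with aspirin (0.63 ± 0.24, 0.402). It was the member of the list with all aspirin arrays above both untreated ones, by little over untreated 24 h. Of 18 apoptosis regulators 3 stood wholly above, Casp6 among them, and 3 wholly below, Bcl2l11 among them (4.44% and 8.20% of all genes), with 0 called and a median of 0.07. Bnip3l, a mitochondrial BH3-like protein, read 2096 and 2729 untreated and 3237 to 5387 with aspirin (0.83 ± 0.32, 0.404).

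The endoplasmic reticulum and amino acid stress genes had changes of both signs. Ppib was called, and Ddit3, the stress factor CHOP, read 541.7 and 1460.2 untreated and 1464, 1049.6, 3005, 3445 and 4849.8 with aspirin (1.42 ± 0.50, 0.387). Ddit3 was near or below untreated 24 h at 2 and 6 h and above it from 12 h on. Hsp90b1, a chaperone of the same compartment, read 10623 and 6664 untreated and 3619, 4672, 4695, 5944 and 6385 with aspirin (−0.76 ± 0.23, 0.316), and Pdia4, a disulfide isomerase, read 1108 and 926.8 untreated and 415.4, 585.3, 541.9, 642.0 and 683.9 (−0.84 ± 0.30, 0.389).

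Both were lowest at 2 h and nearest to untreated at 24 h, and all 3 probe sets of Hsp90b1 had negative changes. The calcium-binding chaperone Calr (−0.59, 0.443), the central chaperone Hspa5 (−0.56, 0.52) and the amino acid transporter Slc7a5 (−0.82, 0.449) also had all 5 aspirin arrays below both untreated arrays. Other folding factors of the list overlapped with untreated cells, such as P4hb (0.00), Canx (0.02), Pdia6 (0.00) and Hyou1 (−0.07). Asns, the asparagine synthetase that amino acid stress induces, overlapped as well (0.11 ± 0.31, 0.954). In all, 2 of the 27 tested genes lay wholly above (4.44% of all genes) and 5 wholly below (8.20% of all genes), with 1 called (0.137% of all genes) and a median of −0.03 that was 0.09 with median centring.

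Glutathione, NRF2 target and antioxidant genes had 0 called of 40, 26 positive and a median of 0.13, which was 0.33 against untreated 2 h and 0.01 against untreated 24 h. With Ptgr1, Me1, which makes NADPH from malate (445.8 and 433.6 untreated, 569.3 to 888.5 with aspirin; 0.70 ± 0.27, 0.404), and the aldose reductase Akr1b1 (2985 and 3578, 4027 to 5489; 0.47 ± 0.19, 0.404) lay wholly above. The other probe sets of Me1 read −0.15, 0.84 and −0.05. Gstt2, a glutathione transferase, read −1.2 and 667.6 untreated and 527.9, 431.1, 655.4, 1655 and 2615 with aspirin (1.89 ± 0.74, 0.404, with untreated 2 h raised to the floor), and it passed untreated 24 h from 16 h on. Hmox1, heme oxygenase, was high at 2 h alone: 971.8 and 939.1 untreated and 2263, 975.7, 797.3, 1188 and 1378 with aspirin (0.37 ± 0.45, 0.839).

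Actin, adhesion and integrin genes had 36 negative changes of 50, 0 called and a median of −0.26, and 9 lay wholly below untreated cells and 2 wholly above. Over all genes 42.5% of changes were positive, 8.20% of genes lay wholly below and 4.44% wholly above. The largest differences rest on 1 control. Adam10, the sheddase of many surface proteins, read 1057 and 181.4 untreated and 101.9, 69.7, 101.3, 95.6 and 131.7 with aspirin (−2.08 ± 0.48, 0.234). Myo1c, a membrane-bound myosin, read 990.3 and 195.8 untreated and 77.2 to 178.7 with aspirin (−2.01 ± 0.49, 0.256), and Pdlim5, a scaffold of actin fibres, 4027 and 692.5 untreated and 335.5 to 562.6 with aspirin (−1.94 ± 0.51, 0.256).

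Untreated 2 h was more than 5-fold above untreated 24 h for each of the 3. Against untreated 24 h alone the changes were −0.81 for Adam10, −0.84 for Myo1c and −0.67 for Pdlim5, and those against untreated 2 h alone were −3.35, −3.18 and −3.21. The list median was −0.38 against untreated 2 h and −0.11 against untreated 24 h. Actb, cytoplasmic actin, read 31974 and 31903 untreated and 25964, 27610.1, 27908, 27773 and 30714 with aspirin, a small difference on every array (−0.19 ± 0.09, 0.485) that ran from −0.23 to −0.07 over the alternatives.

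Growth factor receptors and ligands had 28 negative changes of 44, 0 called and a median of −0.20 (−0.39 against untreated 2 h, −0.10 against untreated 24 h). Met, the receptor of hepatocyte growth factor, read 1541 and 364.0 untreated and 190.5, 247.6, 305.8, 339.1 and 337.5 with aspirin (−1.43 ± 0.46, 0.363), again with untreated 24 h close to the aspirin arrays, and −0.39 against untreated 24 h alone. Insr, the insulin receptor, had both untreated arrays alike at 210.6 and 206.8, and 53.8, 85.3, 2.3, 117.2 and 120.6 with aspirin (−1.04 ± 0.33, 0.363). Pdgfa, a platelet-derived growth factor chain, read 276.1 and 420.6 untreated and 566.3 to 1164 with aspirin (1.16 ± 0.35, 0.34), and Igf2r, the mannose 6-phosphate receptor, 456.2 and 904.8 untreated and 925.5 to 2002 with aspirin (0.97 ± 0.35, 0.394). In all 9 members lay wholly below and 2 wholly above, beside 8.20% and 4.44% of all genes.

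**Figure D4:**
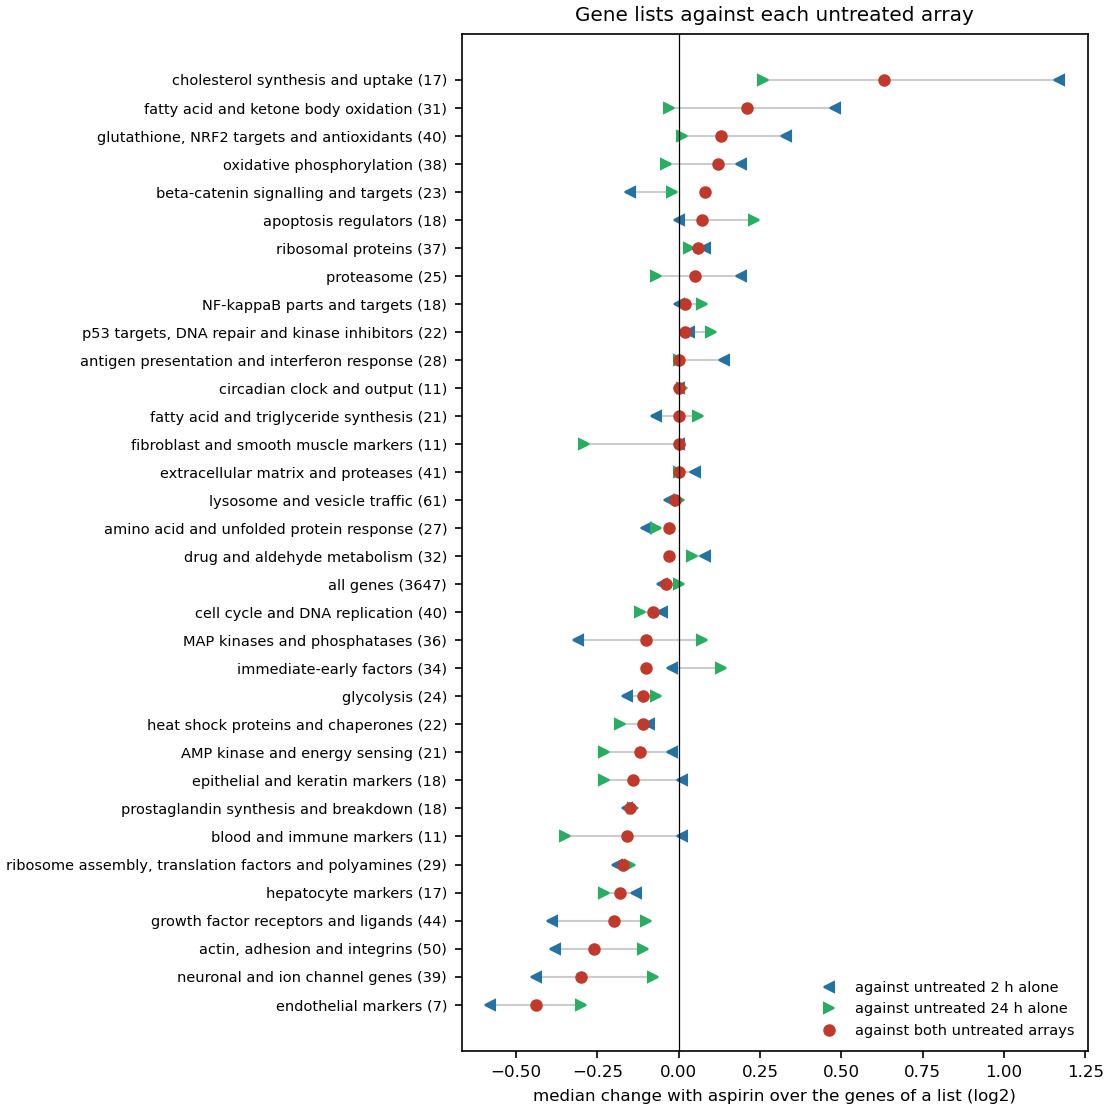
Median change with aspirin (log2) over the tested genes of 33 lists and of all 3647 genes, 1 row each with the number of genes in brackets: against the mean of both untreated arrays (circles), against untreated 2 h alone (triangles to the left) and against untreated 24 h alone (triangles to the right). All genes lie at −0.04, and cholesterol synthesis and uptake at the top runs from 0.26 to 1.17.

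Myc, Ccnd1, Cdkn1a, Odc1 and Cd44, known genes of growth, overlapped with untreated cells. Myc, the growth-driving transcription factor, read 3789.8 and 3821 untreated and 2671, 2696, 3318, 3235 and 3844 with aspirin (−0.28 ± 0.33, 0.832). Ccnd1, cyclin D1, read 12479 and 14935 untreated and 13959 to 18872 with aspirin (0.22 ± 0.36, 0.885), and its other 4 probe sets read −0.43 to 0.34. The kinase inhibitor Cdkn1a was at the floor untreated and on the 2 and 16 h aspirin arrays and read 354.3, 222.1 and 369.8 at 6, 12 and 24 h (1.06 ± 0.66, 0.599). Odc1, the first enzyme of polyamine synthesis (−0.15 ± 0.50, 0.971), and the adhesion receptor Cd44 (0.30 ± 0.45, 0.874) changed sign between settings, and the other probe sets of Cd44 read −0.32 and −0.64.

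Cell cycle and DNA replication genes had 0 called of 40, 29 negative and a median of −0.08, which was 0.04 with median centring. Cdk2, the kinase of the start of DNA replication, read 429.5 and 291.6 untreated and 166.2, 238.4, 146.8, 161.3 and 139.5 with aspirin (−1.08 ± 0.34, 0.363), while its other probe set read −0.21 (0.928). Ribosome assembly, translation factor and polyamine genes had 22 negative changes of 29, 0 called and a median of −0.17, of much the same size against each untreated array (−0.19 and −0.15). Of these, 6 lay wholly below and 1 wholly above (8.20% and 4.44% of all genes). Ribosomal protein genes had 27 positive changes of 37, 0 called and a median of 0.06.

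Epithelial and keratin markers had 0 called of 18 and a median of −0.14 (0.01 against untreated 2 h and −0.23 against untreated 24 h). Krt8, a keratin of simple epithelia, read 15890.4 and 15438 untreated and 13028, 13438, 13830.0, 12225 and 14069.5 with aspirin (−0.24 ± 0.10, 0.428). Tff3, a peptide that goblet cells secrete with mucin, read 475.3 and 534.5 untreated and 305.9, 321.8, 247.6, −99.2 and 10.7 with aspirin (−1.47 ± 0.55, 0.402), at the floor from 16 h on. Jup, plakoglobin of the cell junctions, read 2565 and 1469.9 untreated and 1818, 1591, 931.9, 580.4 and 575.4 (−0.99 ± 0.44, 0.434), lower at each later hour. Ceacam1, an adhesion molecule, read 582.9 and 419.1 untreated and 130.6, 78.6, 215.8, 447.1 and 364.5 (−1.23 ± 0.54, 0.428). It was lowest at 2 and 6 h. Of the later arrays only that of 16 h lay between the untreated values, and those of 12 and 24 h lay below both.

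Neuronal and ion channel genes, which hold Mog, had 1 called of 39 (0.137% of all genes), 27 negative and a median of −0.30 (−0.44 against untreated 2 h, −0.08 against untreated 24 h). Their summed intensity was 10495 to 11760 untreated and 7946 to 10720 with aspirin, with 15 genes above the floor on all 7 arrays. The 7 tested endothelial markers, 4 of them above the floor throughout, summed to 2386 to 2920 untreated and 1564 to 2183 with aspirin and had a median of −0.44. Hepatocyte markers summed to 4394 to 4693 and 2693 to 3954, with a median of −0.18. Over the 33 lists 10 medians were positive, 18 negative and 5 at 0, 4 lists held a called gene, and 8 had medians of opposite sign against each untreated array alone. The median of all genes was −0.04, 0.00 with quantile normalization and 0.08 with median centring, and 2 list medians changed sign under the former and 8 under the latter.

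By the hour, the number of probe sets at least 2-fold beyond both untreated arrays was 99 higher and 197 lower at 2 h (4.84% together), 72 and 202 at 6 h (4.48%), 82 and 127 at 12 h (3.42%), 130 and 68 at 16 h (3.24%) and 270 and 161 at 24 h (7.04%). Lower values prevailed up to 12 h and higher values from 16 h on. The dim aspirin arrays were those of 2, 6 and 12 h, with median log2 intensities of 8.49, 8.50 and 8.60 beside 8.76 and 8.70 at 16 and 24 h, and the part of that in the balance was not tested. At all 5 hours 2 probe sets were beyond both untreated arrays by 2-fold on the higher side, Dgcr6 and Ptgr1, and 2 on the lower side, Mog and Mfsd10. At 4 or more hours there were 16 on each side.

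Against each untreated array alone the calls were unlike in number. Against untreated 2 h 306 probe sets passed (5.0%), 78 higher and 228 lower, and against untreated 24 h 45 passed (0.736%), 3 higher and 42 lower. These comparisons share the aspirin arrays. Of the 306, 185 were probe sets at which untreated 24 h also differed at least 2-fold from untreated 2 h in the direction of the aspirin arrays. The 9 calls against both arrays were all among the 306 and 4 of them among the 45. The 4 falls were called with either untreated array, and the 5 rises were not called against untreated 24 h alone, where the adjusted p of Egr1 was 0.152, of Ndufv3 0.119, of Ppib 0.153 and of Dgcr6 0.0552.

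Set against butyrate at matched hours, aspirin can be compared without the untreated arrays, although the doses differ (3 and 4.5 mM). With the hour as a block, 1540 of 6118 probe sets differed (25.2%; limma, adjusted p under 0.05), 588 higher with aspirin (9.61%) and 952 lower (15.6%). The split was 581 and 637 with quantile normalization and 1516 and 568 with median centring, so which side prevails depends on the scaling. By the brightest probe set, 899 of 3647 genes differed (24.7%), 327 higher with aspirin (8.97%) and 572 lower (15.7%). Without the arrays of 6, 12, 16 or 24 h the count fell to 445, 358, 235 and 602. For 34 genes that differed, the difference was followed with each hour left out. Of these, 12 differed whichever hour was left out: Slc16a6, Rab3d, Capn1, Cdk2, Prnp, Calr, Ndufa5, Cel, Ier3, Myc, Adam10 and Cox4i2. Some genes named only in passing, such as P4hb, Egr2, Dusp5 and Klf6, differed as well but were not followed in this way.

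**Figure D5:**
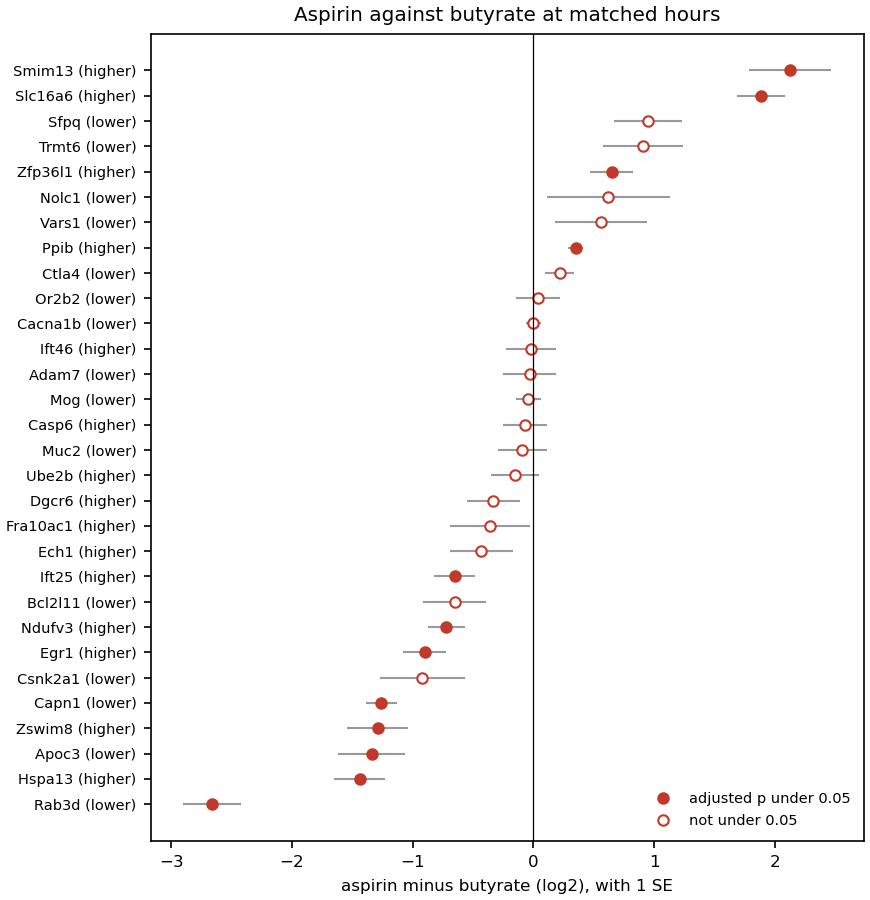
Aspirin minus butyrate at matched hours (log2, with 1 SE; 5 arrays each, hour as a block) for the 30 called or clearly separated genes, each named with its direction in aspirin against untreated cells. Filled circles have an adjusted p under 0.05; Rab3d at −2.66 and Smim13 at 2.13 are the ends.

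Of the called genes, Egr1 was lower with aspirin than with butyrate by 0.90 ± 0.18 on the log2 scale (adjusted p = 0.0213), and Ndufv3 by 0.72 ± 0.15 (0.022), both lost without some hours (up to 0.0812 and 0.0881). Ppib was higher with aspirin, by 0.35 ± 0.06 (0.0162; up to 0.0687 over the alternatives), and its other probe set read 0.22 (0.085). For Dgcr6 the difference was −0.33 ± 0.22 (0.319), for Mog −0.04 ± 0.10 (0.795), for Ctla4 0.22 ± 0.12 (0.246) and for Cacna1b 0.00 ± 0.06 (1), with most arrays of both treatments at the floor in the last 3. Against untreated cells, which both comparisons share, Egr1 was 1.31 with aspirin and 2.21 with butyrate, Ndufv3 1.32 and 2.04, Ppib 0.82 and 0.47, Dgcr6 at least 1.71 and at least 2.04, and Mog −1.41 and −1.38.

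Among the separated genes Slc16a6 (1.89 ± 0.20, 0.0056), Smim13 (2.13 ± 0.34, 0.0121) and Zfp36l1 (0.65 ± 0.18, 0.0476) were higher with aspirin than with butyrate. Zfp36l1 passed in 4 of 10 alternatives, and its other probe set read 0.20 (0.499). Rab3d (−2.66 ± 0.24, 0.00496), Apoc3 (−1.34 ± 0.28, 0.022) and Capn1 (−1.26 ± 0.13, 0.0056) were lower. Against untreated cells Rab3d was 1.41 with butyrate and −1.25 with aspirin, and Capn1 0.55 and −0.70. Casp6 (−0.07 ± 0.18, 0.803), Muc2 (−0.09 ± 0.20, 0.758) and Ift46 (−0.02 ± 0.21, 0.969) did not pass, which does not show that the treatments act alike on them.

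Some genes whose aspirin arrays overlapped with untreated cells differed between the treatments. Myc was 2.48 ± 0.31 higher with aspirin than with butyrate (0.00756) and Ccnd1 2.00 ± 0.31 (0.011; 0.09, 0.831, on 1 of its 5 probe sets), while Prnp was lower by 3.58 ± 0.41 (0.00637), Slc27a1 by 2.73 ± 0.51 (0.0172) and Jup by 1.52 ± 0.25 (0.0121). Ier3 was higher by 0.60 ± 0.07 (0.00586; 0.50, 0.0638, on its other probe set). Of genes whose aspirin arrays all lay below untreated cells, Adam10 was lower with aspirin than with butyrate by 1.86 ± 0.16 (0.00463) and Calr by 0.92 (0.0056). Cel was lower by at least 1.21 ± 0.15 (0.00756), with all 5 aspirin arrays at the floor. Cdk2 was lower by 1.36 ± 0.17 (0.00756; −0.32, 0.476, on its other probe set) and Cox4i2 by 1.46 ± 0.16 (0.00567). Ndufa5, wholly above untreated cells, was higher by 0.86 ± 0.09 (0.0056). Fatty acid and ketone body oxidation had 13 genes of 31 lower with aspirin and 0 higher (list median −0.66), actin, adhesion and integrins 20 lower and 4 higher of 50 (−0.40), and oxidative phosphorylation 16 higher and 2 lower of 38 (0.31), beside 8.97% higher, 15.7% lower and a median of −0.10 over all genes. Of the 17 cholesterol genes 1 was higher and 1 lower (0.17).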

How the data were processed

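Total RNA of CC531 cells was measured on 12 rat expression arrays. The authors deposited 1 value table of 8799 probe sets, 59 of them controls. Judged by the deposited values, these are intensities on a linear scale, and each array has 21.5 to 25.5% below 0. Software, background correction and scaling: not given in the sources used here. Since trimmed array means agreed within 989.4 to 993.0, no further scaling was applied. The array's platform annotation was used for names: 7006 probe sets name 1 gene, 308 several and 1426 none.

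Values under 90.91, the absolute 10th percentile, were raised to it before log2. The 2622 probe sets whose mean log2 fell short of 6.54, the 30th percentile, were not tested. A change is "at least" where every array of the lower group was at the floor and none of the other; with only some there, it is the change of the floored values and no bound. Groups were compared with limma 3.58.1 (R 4.3.3; lmFit and trended eBayes) in 1 fit of 3 groups over the 12 arrays, with 9 residual degrees of freedom, and aspirin with butyrate on the 10 treated arrays with the hour as a block (4 degrees of freedom). The threshold was a Benjamini-Hochberg adjusted p of 0.05 over all tested probe sets. Depth has no counterpart on arrays, and their number limits the precision. The fits were tested on simulated data.

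Genes were named by a rule: called probe sets with 1 gene; then those whose groups do not overlap, by the gap; genes with 1 group wholly at the floor; genes 2-fold from the same hour at 2 and 24 h; the 4 members of lowest p of each list; and a short list of known genes. Ctnnb1, Sat1, Hmgcs1 and Gapdh of that list had no tested probe set of their own. Calr, Hspa5, Slc7a5, P4hb, Canx, Pdia6 and Hyou1 are outside the rule and were named after their values were seen. The 33 gene lists take each gene's brightest probe set. Members and lists were chosen with earlier results of these data known. Promoters are RefSeq's for GRCr8, 250 bases before each start. Alternatives were other floors, filters, scalings, variance models and time terms, and the loss of each array.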

Additional observations from a re-analysis of the deposited data

Results flagged for a closer look

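Of 101 gene results, 5 had an aspirin array whose gap to the nearest of the others, over the range of the 5 arrays, was above Dixon's limit of 0.710, which chance passes in about 1 group in 20. Mog read 104.2 at 6 h beside −141.3 to 52.8 at the other hours, a gap that lies wholly between the floor and a value just above it once values are floored. Ptgs2 read 41.2 at 12 h beside 203.3 to 252.0. Ech1 read 838.4 at 2 h beside 323.2 to 419.8, and Nolc1 202.6 at 2 h beside 327.6 to 377.6. Adam7 read 219.2 at 16 h beside 135.2 to 148.3. The 5 flags fell on 4 different hours, and their causes were not tested.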

How the results depend on the processing

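The count of probe sets called for aspirin against untreated cells, 9 with the chosen settings, was 0 with a filter at the 50th percentile, with median centring, with quantile normalization, with time as a factor and with the hour as a block on the 2 and 24 h arrays, 5 without the variance trend and 17 with a floor of 200. It stayed within 1.5 times with a floor of 20 (6), no filter (9), robust variance (8) and the 7 arrays alone (6). Leaving out 1 array gave 1 to 306 calls, the highest without untreated 24 h and 45 without untreated 2 h. The fits without a butyrate array (4 to 9) were added after seeing the data. For aspirin against butyrate the counts were 1041 to 2084 over the floors, scalings and time block and 235 to 1643 without 1 hour. Of 2311 values of 101 genes under the alternatives, 2191 kept direction and side of the threshold, 91 lost the call and 23 gained one. Only the 7 called genes could lose a call, so most of the 2191 belong to genes that were not called. Each of the 7 stayed called in 5 to 17 of its 22 or 23 alternatives. The other 6 values changed sign, in 3 genes that were never called. These were Odc1 (0.20 with the hour as a block, and −0.41 to 0.12 without 1 array), Ptgs2 (0.00 with the hour as a block, and −0.33 to 0.03 without 1 array) and Cd44 (−0.53 to 1.13 without 1 array). The causes were not tested. No paired analysis was possible because the labels give no replicate numbers, and pairing by hour is the block named above. Genes with a group wholly at the floor have bounds in place of changes.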
